A study of Mus musculus with 6 samples.

Results

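Box C/D snoRNAs are small nucleolar RNAs named after their conserved boxes C and D, which lie near the 5′ and 3′ ends and bind a shared set of core proteins that includes the methyltransferase fibrillarin. Most of them pair with ribosomal RNA and direct methylation of the ribose at single positions, and a few take part in cleaving the ribosomal RNA precursor. In mammals most are cut out of introns of host genes transcribed by RNA polymerase II, many of which encode ribosomal proteins or other parts of the translation machinery.

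The members described here are the transcripts whose gene name starts with Snord in the GENCODE M21 mouse annotation. There were 76 such transcripts, from as many genes, among the 1630 short transcripts in the table of counts. M21 holds 98 genes of such names, and the others were not analysed here. A further 313 Ensembl transcripts in the table had no entry in M21 and could not be named, so any members among them are missed. The tissue was superior duodenum, where the small intestine begins, from male mice fasted overnight. The 3 wild types were C57Bl/6N, and the 3 heterozygous mice carried C57BL/6N-Polr3b<em7(IMPC)Tcp>/Tcp, a germline insertion predicted to shift the reading frame of 1 copy of Polr3b, which encodes the second largest subunit of RNA polymerase III. By the study's methods the heterozygous mice had a heterozygous parent and the wild types did not, so genotype and parental genotype cannot be told apart. Ages are not given in the sources used here. The comparison asked whether short RNAs change when 1 copy of this Pol III subunit is disrupted. Snord genes are not classic Pol III templates.

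The counts of a mouse summed to between 2114055 and 6037849. The heterozygous columns are numbered 1 to 3 but are not tied to a given animal, so their numbers are names only. Polr3b mRNA is too long for the table, which left the genotypes unchecked, and the mRNAs of Fbl, Nop56, Nop58 and Snu13, which encode the core box C/D proteins, are missing for the same reason. A single transcript with no entry in M21 held 16.7%, 45.1% and 47.1% of all counts in heterozygous mice 1, 2 and 3 and 47.7%, 28.5% and 20.7% in wild types 1, 2 and 3. All 9 epithelial microRNA precursors looked for were listed, summing to 5 to 11 CPM of the library total in heterozygous mice and 3.31 to 18.4 in wild types. Mir192, typical of intestinal epithelium, was present in 6 of 6 mice, while Mir200a, Mir200b, Mir200c, Mir429 and Mir141 were at 0 to 6 counts. Mir194-1 had 0 to 9 counts and Mir194-2 had 0 to 17. Mir215 had 0 in every heterozygous mouse and in wild type 1, and 19 and 13 in wild types 2 and 3. Smooth muscle precursors summed to 0.70 to 4.61 CPM and blood cell precursors to 0 to 3.73, of 4 pancreatic precursors only Mir375 was listed, at 0 to 5 counts, and no liver or nerve precursor was. These were whole pieces of tissue, in which fewer cells of a type and less RNA per cell cannot be told apart.

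The sequences of the members on which the results turn are given 5′ to 3′ from GENCODE M21, with coordinates on GRCm38. The counts were made on GRCm39 with later versions of most transcripts, so the sequence counted may differ. Capitals mark box C, searched as ATGATGA or GTGATGA with at most 1 mismatch in the first 20 bases, and box D, searched as CTGA in the last 15 bases, on the transcript's strand. Where no exact box C was found, the first match with 1 mismatch is marked. In Snord98 a later match with 1 mismatch, ATGATGT, overlaps the marked stretch, and which is box C was not settled. First come the 4 members with the highest level per length, from chr11:69073427-69073561 (plus strand, no host gene), chr11:62603450-62603521 (plus strand, intron of the non-coding gene 2410006H16Rik), chr10:81178950-81179013 (plus strand, intron of Eef2) and chr16:23108953-23109021 (plus strand, in Eif4a2).
Snord118: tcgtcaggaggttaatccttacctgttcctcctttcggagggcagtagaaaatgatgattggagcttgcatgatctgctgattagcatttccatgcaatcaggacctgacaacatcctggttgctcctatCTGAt
Snord49a: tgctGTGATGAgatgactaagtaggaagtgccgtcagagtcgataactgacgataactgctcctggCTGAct
Snord37: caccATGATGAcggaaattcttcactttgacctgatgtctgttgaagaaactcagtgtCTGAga
Snord2: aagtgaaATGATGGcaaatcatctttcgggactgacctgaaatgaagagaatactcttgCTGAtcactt

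The next set holds members with the smallest unadjusted p between genotypes, and Snord1b, a near-identical copy of Snord1c. They lie at chr2:37400047-37400157 (Snord90, minus strand, intron of Rc3h2), chr10:62765576-62765640 (Snord98, minus strand, intron of Ccar1), chr15:32241853-32241923 (Snord123, minus strand, intron of the non-coding gene Snhg18), chr11:116672506-116672581 (Snord1c) and chr11:116674148-116674222 (Snord1b), the last both on the plus strand in the non-coding gene 1810032O08Rik.
Snord90: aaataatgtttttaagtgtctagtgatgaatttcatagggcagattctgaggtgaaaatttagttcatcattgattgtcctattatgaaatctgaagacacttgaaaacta
Snord98: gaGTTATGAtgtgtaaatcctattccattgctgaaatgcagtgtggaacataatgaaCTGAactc
Snord123: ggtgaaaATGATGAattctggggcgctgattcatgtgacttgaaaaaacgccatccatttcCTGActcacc
Snord1c: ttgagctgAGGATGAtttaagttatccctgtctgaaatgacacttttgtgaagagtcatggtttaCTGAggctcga
Snord1b: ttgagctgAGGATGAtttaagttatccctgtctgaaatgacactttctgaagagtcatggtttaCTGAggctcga

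The last set holds the pair of Nop58, which has the widest gap in level among the tested members of 1 host (chr1:59704790-59704873 and chr1:59691934-59692020, both on the plus strand in introns), and the pair of members that varied most between mice, at chr1:161037601-161037681 (Snord80, plus strand, in Gas5) and chr8:123103038-123103123 (Snord68, plus strand, intron of Rpl13).
Snord11: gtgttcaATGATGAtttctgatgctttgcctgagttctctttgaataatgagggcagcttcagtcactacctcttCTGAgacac
Snord70: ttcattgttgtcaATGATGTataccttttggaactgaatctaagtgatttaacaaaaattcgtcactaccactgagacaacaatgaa
Snord80: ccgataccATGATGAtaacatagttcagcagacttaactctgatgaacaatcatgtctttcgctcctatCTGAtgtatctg
Snord68: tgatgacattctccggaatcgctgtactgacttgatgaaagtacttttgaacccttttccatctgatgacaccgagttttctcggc

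Most of the 76 members held the box motifs in the windows searched. Box C without a mismatch was found in 44 of 76 (57.9%), with at most 1 mismatch in 69 (90.8%), box D in 69 (90.8%), and both boxes in 65 (85.5%). Both boxes were found in 0 of 36 Snora transcripts, the box H/ACA snoRNAs that guide pseudouridylation, in 0 of 150 snRNAs and in 1 of 150 microRNA precursors. Of 14 transcripts of the scaRNA type, 3 (21.4%) held both. Among the 199 other transcripts of the snoRNA type, most of them predicted genes without a family name, 76 (38.2%) held both. The 7 members with no box C in the window were Snord118, Snord13, Snord43, Snord90, Snord88a, Snord88c and Snord68. M21 types Snord43 as a microRNA and the other 75 members as snoRNA. In Snord68 the annotated transcript starts with TGATGA, without the base that precedes it in box C, as its sequence above shows. Members were 64 to 238 bases long, with a median of 79.5, and 12 were longer than 100 bases. GC content ran from 28.8% in Snord78 to 65.1%, with a median of 44.5%.

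All 76 members had counts in every mouse, and 53 had at least 100 in every mouse. The Snord transcripts held 2.64%, 1.42% and 2.62% of all counts in heterozygous mice 1, 2 and 3 and 1.46%, 1.99% and 2.35% in wild types 1, 2 and 3. The means were 2.23% ± 0.697 and 1.93% ± 0.448 (SD, n = 3), and the genotypes overlapped. The 95% Wilson interval of the first share was 2.624% to 2.655%; such intervals cover counting error only and are far narrower than the spread between mice. Leaving out the most abundant transcript of the table, the shares were 3.17%, 2.59% and 4.95% against 2.79%, 2.78% and 2.96%. On that base the wild types lay close together, and heterozygous mouse 3 stood above the other 5.

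The levels of members were compared as CPM, counts brought to a common library size, after TMM scaling, divided by annotated length and given per 100 bases. They ran over a wide range, from a mean of 2089 for Snord118 to 7.29 for Snord53, a 287-fold span among the tested members, with a median of 182. There were 4 members over 1000 (Snord118, Snord49a, Snord37 and Snord2), and 52 over 100. The 10 with the highest levels also included Snord49b, Snord13, Snord15b, Snord104, Snord22 and Snord72. Ranked by TMM CPM without division by length, the 10 highest took in Snord43 and Snord17 in place of Snord104 and Snord72. The 10 of that ranking held between 42.7% and 51.1% of the Snord counts of a mouse.

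Snord118, also called U8, is needed to process the precursor of the large-subunit ribosomal RNAs and is transcribed from its own promoter. Its level was 2030, 1356 and 2927 per 100 bases in heterozygous mice 1, 2 and 3 and 1483, 2011 and 2725 in wild types 1, 2 and 3. It alone held 10.6% to 17.5% of the Snord counts. Snord49a, next in order, stood at 1539, 1022 and 1683 and at 1044, 1580 and 1147 in the same mice, below Snord118 in 6 of 6. The order below was not fixed: Snord37, encoded in the elongation factor gene Eef2, had 1164, 1049 and 1224 and 976, 1335 and 1414, above Snord49a in only 2 of the 6 mice. Snord2, from the initiation factor gene Eif4a2, had 1082, 724 and 1226 and 643, 1132 and 1217, so its range overlapped those of Snord49a and Snord37.

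Snord13, or U13, helps to direct acetylation of the small-subunit ribosomal RNA and, like Snord118 and Snord104, had no annotated host gene. Its level was 786 ± 188 per 100 bases (SD over 6 mice). Snord104 was at 705 ± 133 and Snord22, or U22, from the snoRNA host gene Snhg1 and needed to mature the small-subunit RNA, at 663 ± 153. Their ranges overlapped. At the low end, Snord7 had 15.5 ± 3.60, Snord70 11.5 ± 7.51 and Snord53 7.29 ± 2.71. Snord107, with 13, 2 and 3 counts in the heterozygous mice and 2, 3 and 13 in the wild types, was the only member too low to be tested.

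**Figure D1:**
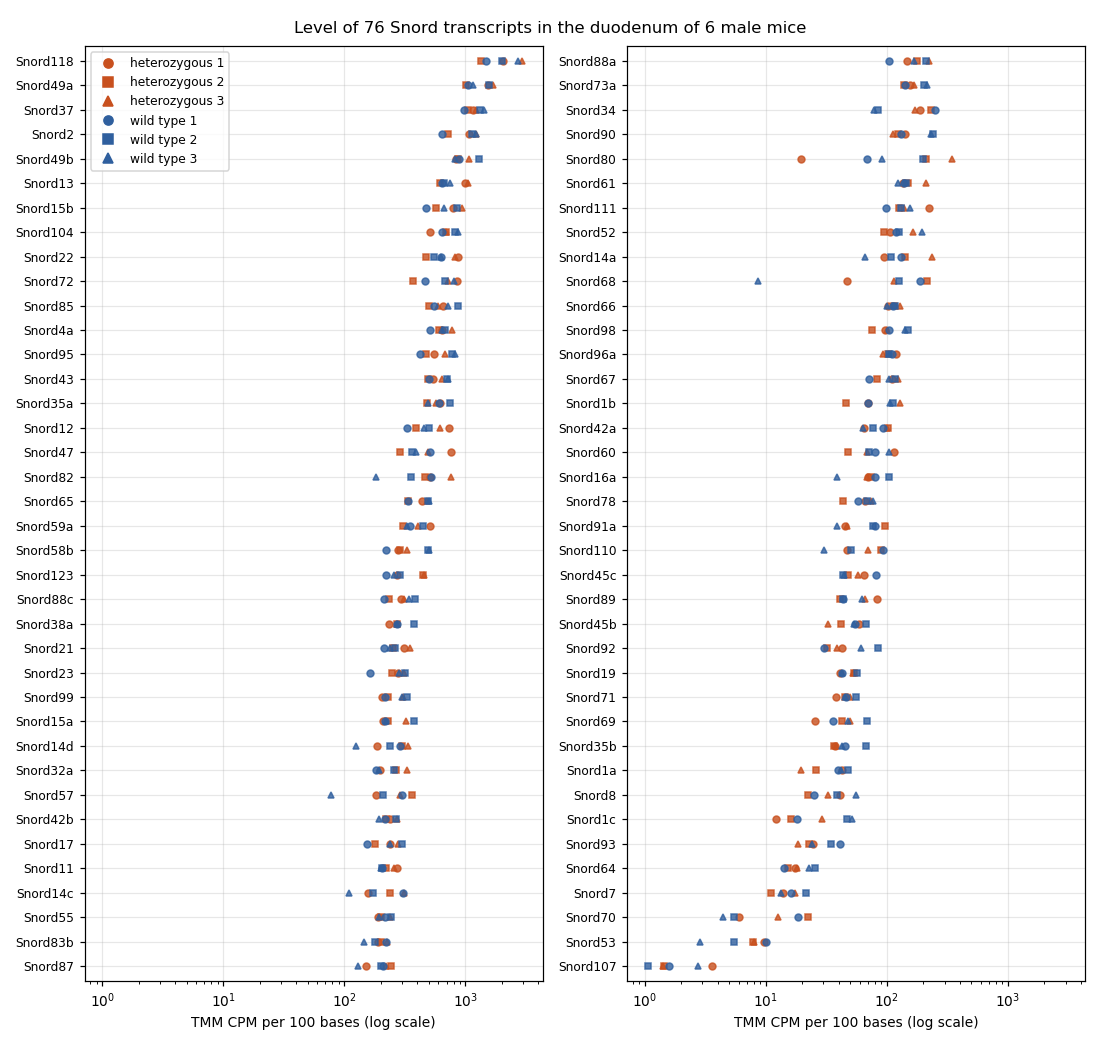
Level of each of the 76 Snord transcripts in every mouse, as TMM CPM per 100 bases of annotated length on a log axis, ordered by mean level. Orange points are the 3 heterozygous and blue points the 3 wild-type mice. Colours are mixed along most of the order, and Snord68 and Snord80 show the widest spread between mice among members with a mean of at least 100 TMM CPM.

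Members without an exact box C had a lower median level than those with one, 140 against 215 per 100 bases (32 and 44 members). By length, the median was 235 in the shortest 25 members (up to 72 bases) and 123 in the next 26 (up to 87 bases). It was 194 in the longest 25. Members of equal length at a bound were split by name, so lengths of 72 and 87 bases occur on both sides. The level is itself divided by length, which raises short members, and the order of the length groups without that division was not computed. These are descriptions with no test, and members of 1 host gene are not independent.

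Of the 76 members, 73 lay inside another annotated gene on the same strand, in 51 host genes. There were 40 inside introns only, and the other 33 overlapped an exon of at least 1 annotated transcript of the host. Ribosomal protein genes, counting Rack1, held 22 members, non-coding genes 19, translation factor genes 3 and other protein-coding genes 29. The last group includes Snord64 and Snord107 of the imprinted chromosome 7 cluster, because M21 types the gene that holds them, Gm38393, as protein-coding. The median level was 237 per 100 bases for members in ribosomal protein genes (range 44.7 to 718), 156 in non-coding genes (15.5 to 1340) and 112 in other protein-coding genes (1.97 to 651). The ranges of these groups overlapped. The 3 members in translation factor genes had a median of 1000 (113 to 1190). The 3 members without a host had a median of 786 (705 to 2090), above every member in other protein-coding genes. Taking the longest annotated gene, readthrough models included, put 18 members in ribosomal protein genes, 21 in non-coding and 31 in other protein-coding genes, with medians of 249, 172 and 117.

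Members of the same host gene often differed in level. There were 17 host genes with at least 2 members, 39 members in all, and in 14 of them the highest member stood above the lowest in all 6 mice. Highest and lowest were set by the mean over these same mice. Nop58, which encodes a core box C/D protein, held Snord11 at 227 and Snord70 at 11.5 per 100 bases, a ratio of mean levels of 19.7, and the ratio was 10 to 45.9 in single mice. Nop56, which encodes another core protein, held Snord57 at 237 and Snord110 at 63.6, a ratio of 3.73 that ran from 2.56 to 4.16. Rpl23a carried Snord4a at 643, Snord42b at 235 and Snord42a at 83.2, and Rack1 carried Snord95 at 620 and Snord96a at 106. In 3 hosts the order was not kept in all mice, and the levels were near equal: Snord14d and Snord14c in the chaperone gene Hspa8 (a ratio of 1.14), Snord45c and Snord45b in Rabggtb (1.11) and Snord19 and Snord69 in Gnl3 (1.07). Snord14c and Snord14d are 97.7% identical over 86 bases, and Salmon divides their reads by estimation, so their equal levels are uncertain. Among the 14 hosts with a kept order, Snord1b and Snord1c are 97.4% identical and Snord88c and Snord88a 94.4%. Their order rests on the same division of reads.

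Gas5, a non-coding gene known mainly as a snoRNA host, had 3 members here. Snord47 was at 763, 291 and 487 per 100 bases in heterozygous mice 1, 2 and 3 and at 513, 365 and 394 in wild types 1, 2 and 3. Snord78 stayed lowest or next to lowest, at 65.6, 43.1 and 73.7 and at 57.3, 68.3 and 77.4. Snord80 moved between them, from 19.5 in heterozygous mouse 1 to 345 in heterozygous mouse 3, with 212 in heterozygous mouse 2 and 68.7, 198 and 90.5 in the wild types. Only in heterozygous mouse 1 was Snord80 the lowest of the 3.

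Rpl13a, a ribosomal protein gene, held Snord35a at 589, Snord32a at 238 and Snord34 at 167 per 100 bases. The ratio of Snord35a to Snord34 was 3.34, 2.1 and 3.32 in the heterozygous mice, and 2.46, 8.89 and 6.35 in wild types 1, 2 and 3. The ratio of Snord92 to Snord53 in Wdr43, a ribosome assembly gene, was 4.45, 4.13 and 4.78 in the heterozygous mice and 3.02, 15.5 and 21.5 in the wild types. In both hosts wild types 2 and 3 had the highest ratios, wild type 1 lay with or below the heterozygous mice, and the genotypes overlapped. Snord53 rested on 12 to 39 counts per mouse.

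**Figure D2:**
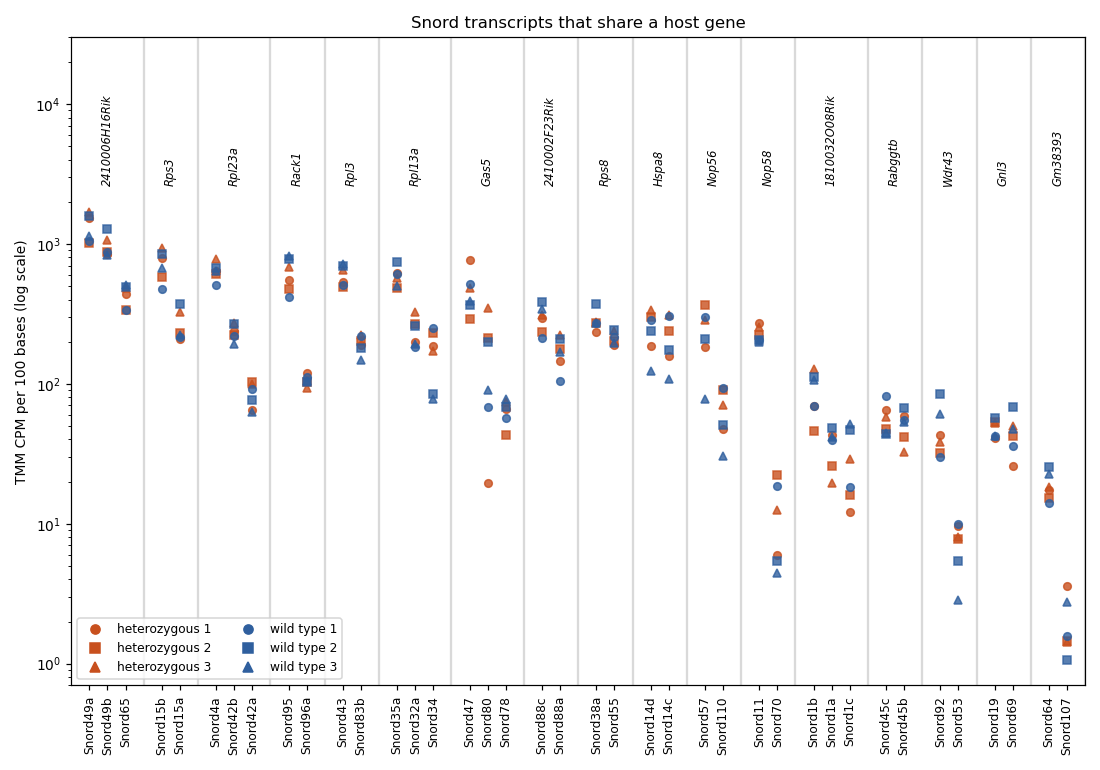
Level of the 39 Snord transcripts that share a host gene with another, in every mouse, as TMM CPM per 100 bases on a log axis, grouped by host gene (names at the top). Orange points are heterozygous and blue points wild-type mice; Snord11 stands above Snord70 in Nop58 by 10 to 45.9 times, while the members of Gnl3 and Rabggtb lie at like levels.

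Between genotypes, 0 of the 75 tested Snord transcripts passed 10% FDR in the quasi-likelihood test of edgeR, adjusted after Benjamini and Hochberg over the 560 transcripts tested, as did 0 of all 560 (0%). At an unadjusted p under 0.05 there were again 0 of 75, against 20 of 560 (3.57%) over all transcripts. DESeq2 called 0 Snord transcripts at 10% FDR, where 3 of 1614 transcripts with a p value (0.186%) were called, and 0 at an unadjusted p under 0.05 (1.80% of all). With other scalings in edgeR there was 1 such member with DESeq2's size factors, Snord123 (4.46% of all), and 2 with TMM over transcripts other than tRNAs, Snord90 and Snord98 (4.82%). Fold changes were given as log2 of heterozygous over wild type. In 39 of the 75 members the estimate was above 0 and in 36 below, while 44.6% of all tested transcripts were above 0. The median was 0.01, with a range of -1.03 to 0.70, and the median over all tested transcripts was -0.05.

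The precision allowed a bound for some members only. Standard errors on the log2 scale ran from 0.26 to 0.98, with a median of 0.34. All 75 of the 95% intervals included 0, and 32 of the 75 lay wholly within a doubling or halving, against 22.5% of all tested transcripts. The intervals of the other 43 reached beyond a doubling or a halving. Snord55 had one of the narrow intervals, from -0.67 to 0.58, and Snord68 the widest, from -2.09 to 2.54.

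**Figure D3:**
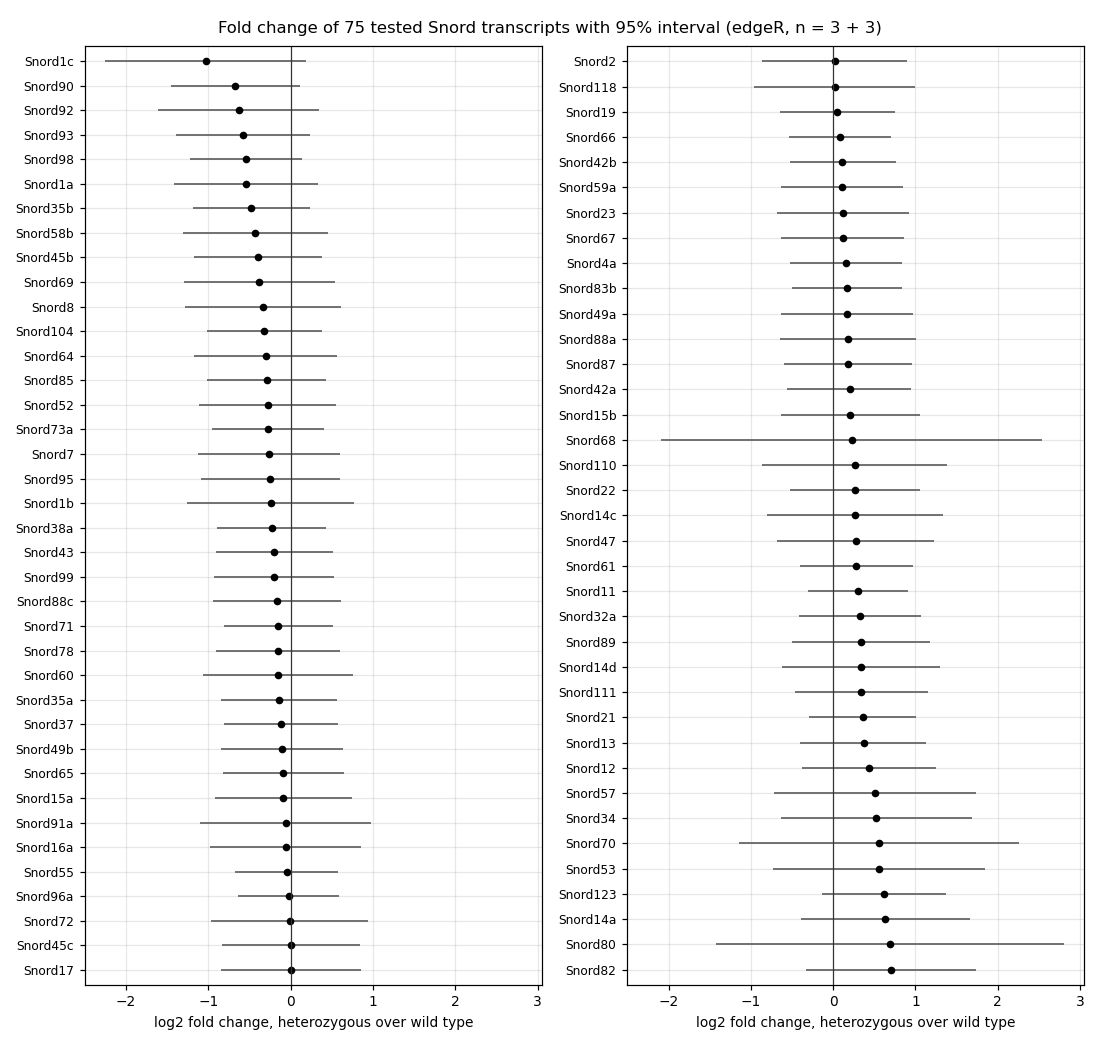
Log2 fold change of heterozygous over wild-type mice for the 75 tested Snord transcripts, with 95% intervals from edgeR's fit (3 mice per genotype), ordered by fold change from the lowest (top left) to the highest (bottom right). All 75 intervals cross 0, and estimates run from -1.03 (Snord1c) to 0.70 (Snord82).

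The mice of each genotype were separated without overlap in few members. All heterozygous mice lay above all wild types in 1 member, Snord11 (background 2.14% of the 560), and below them in 2, Snord98 and Snord35b (background 4.11%). Scaled by library totals alone, 4 members were separated upwards (background 2.50%) and 0 downwards (1.43%). Snord11 had 230, 186 and 215 TMM CPM in heterozygous mice 1, 2 and 3 and 174, 172 and 168 in wild types 1, 2 and 3, a log2 fold change of 0.30 (SE 0.26). Its heterozygous mice varied by more than the gap to the wild types. Snord35b, picked out only because its mice did not overlap, had 32.5, 32.0 and 33.1 against 39.5, 58.8 and 37.5, a log2 fold change of -0.48 (SE 0.30). Here the wild types varied most, and the gap between the nearest mice was small.

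Among estimates below 0, Snord90 had the smallest p. It had 156, 139 and 126 TMM CPM in heterozygous mice 1, 2 and 3 and 144, 269 and 255 in wild types 1, 2 and 3. Wild types 2 and 3 were high and wild type 1 lay within the heterozygous range. The log2 fold change was -0.67 (SE 0.33, adjusted p = 0.999 in edgeR's test). Snord98, whose sequence is one of the shorter ones above, had 62.5, 49.2 and 65.8 against 68.4, 96.6 and 92.7, a log2 fold change of -0.54 (SE 0.29, edgeR's adjusted p = 0.999). Again wild type 1 was the wild type nearest to the heterozygous mice.

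Snord1c had the lowest estimate of all members, a log2 fold change of -1.03 (SE 0.52, edgeR's adjusted p = 0.999). It had 9.23, 12.2 and 22.2 TMM CPM in heterozygous mice 1, 2 and 3 and 13.9, 35.4 and 38.9 in the wild types, from 24 to 263 counts, and the groups overlapped through wild type 1. Its sequence is 97.4% identical to that of Snord1b over 76 aligned bases, and 100% identical over 73 bases to the predicted snoRNA gene Gm24253. Snord1b had 52.3, 34.5 and 95.6 against 52.3, 83.9 and 79.8, a log2 fold change of -0.24 (SE 0.43). With the counts of Snord1b and Snord1c summed, the log2 fold change was -0.43 (SE 0.44), and with Gm24253 added too it was -0.25 (SE 0.41). The value for Snord1c alone rests on Salmon's division of reads among these copies. Snord93, at 17.5, 16.2 and 13.2 against 28.9, 24.7 and 17.0, had a log2 fold change of -0.58 (SE 0.34), or -0.27 (SE 0.38) when summed with Mir3096, which is 98.6% identical to it.

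Among estimates above 0, Snord123 had the smallest p. Its values were 195, 318 and 323 TMM CPM in heterozygous mice 1, 2 and 3 and 156, 207 and 182 in the wild types. Heterozygous mice 2 and 3 were high, and heterozygous mouse 1 lay among the wild types. The log2 fold change was 0.62 (SE 0.32, edgeR's adjusted p = 0.999). Snord82, encoded in the gene of the nucleolar protein nucleolin, Ncl, had 355, 328 and 529 against 365, 251 and 129 and the highest estimate, 0.70 (SE 0.44). Wild type 1 stood within the heterozygous range here too. Snord21, from Rpl5, had 295, 237 and 327 against 199, 248 and 225, a log2 fold change of 0.36 (SE 0.28).

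Wild type replicate 1, the library with the lowest total, was the wild type nearest to the heterozygous mice in several of these members. Without it, 6 of 75 members had an unadjusted p under 0.05 in edgeR's test, against 9.27% of all tested transcripts, and 0 passed 10% FDR. These were Snord34, with a log2 fold change of 1.26 (adjusted p = 0.418), and Snord82 at 1.08, and, in the other direction, Snord90 at -0.91, Snord92 at -0.95, Snord58b at -0.74 and Snord1c at -1.36. Their adjusted p ranged up to 0.509. Without heterozygous replicate 3 there was 1 such member, Snord1c, at -1.45 (adjusted p = 0.998), against 1.47% of all tested transcripts.

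**Figure D4:**
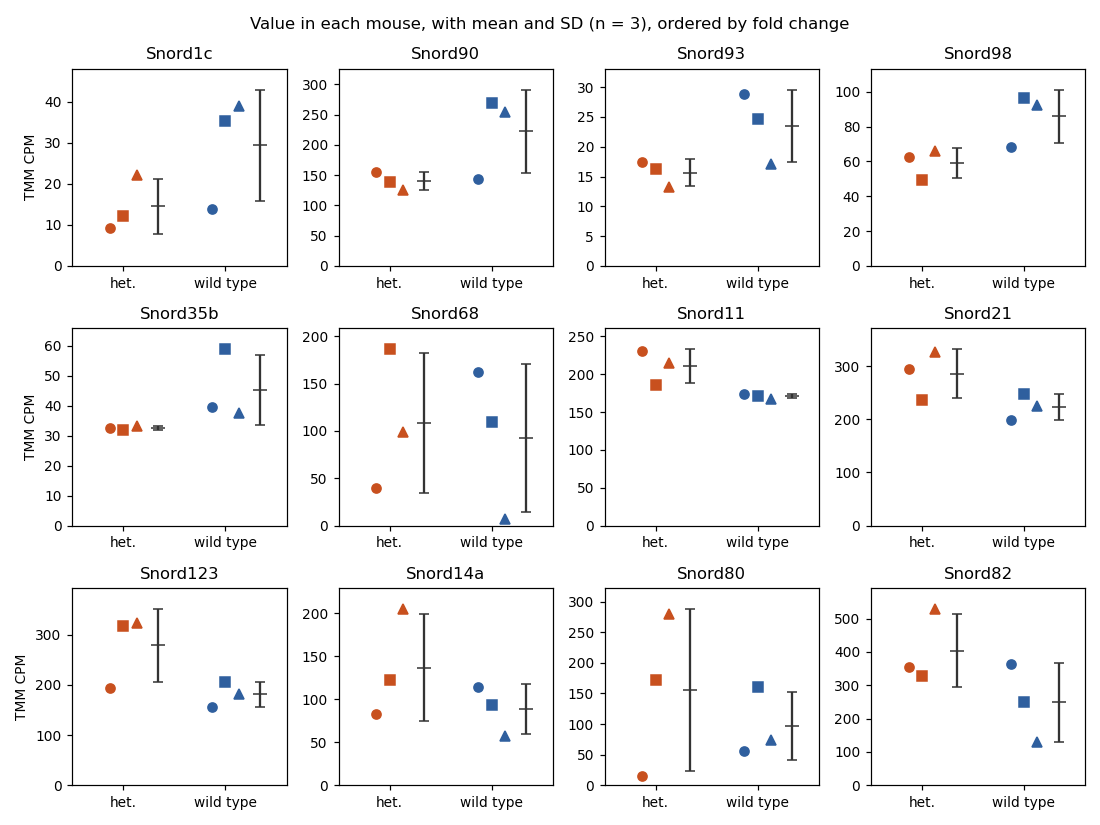
TMM CPM in each mouse for the 12 Snord transcripts with the smallest p in each direction, with the widest spread, or with no overlap between genotypes. Orange points are heterozygous and blue points wild-type mice, circles, squares and triangles are replicates 1, 2 and 3, and bars give mean and SD (n = 3); wild type 1 lies within or next to the heterozygous range in Snord1c, Snord90 and Snord98.

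By role, the list set for processing of the ribosomal RNA precursor held Snord118, Snord22 and the 3 copies of U14, Snord14a, Snord14c and Snord14d. It also held Snord13, whose part in acetylation is given above. No transcript named Snord3 (U3) is among the 76. U3 under another name, or among the 313 transcripts with no entry in M21, was not looked for. All 6 had an estimate above 0, against 39 of the 75 tested members and 44.6% of all tested transcripts. In edgeR's test 0 of 6 had an unadjusted p under 0.05, against 3.57% of all tested transcripts. Snord14c and Snord14d are 97.7% identical, so the 6 are not independent. Snord118 fell on the other side of 0 under TMM over transcripts other than tRNAs, at -0.05, and Snord118 and Snord14c when single mice were left out. Snord118 stood at 2741, 1830 and 3952 TMM CPM in heterozygous mice 1, 2 and 3 and at 2002, 2714 and 3679 in the wild types, a log2 fold change of 0.02 (SE 0.41). The spread within each genotype exceeded the difference by far. Summing it with Gm24208, a predicted gene 96.2% identical to it, left the log2 fold change at 0.01 (SE 0.42).

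Snord13 had 1030, 638 and 1095 TMM CPM against 672, 699 and 773, a log2 fold change of 0.37 (SE 0.32), and Snord22 had 1089, 599 and 1042 against 794, 697 and 791, a log2 fold change of 0.26 (SE 0.33). In both, heterozygous mouse 2 was the lowest of the 6 and the other heterozygous mice the highest. The U14 copies, which help to cleave the precursor and also guide a methylation, shared another order of mice. Snord14a had 82.7, 122 and 205 against 114, 93.6 and 57.0, a log2 fold change of 0.63 (SE 0.43). Snord14c and Snord14d, summed because their sequences are near-identical, had a log2 fold change of 0.30 (SE 0.43). All 3 copies were highest in heterozygous mouse 3 and lowest in wild type 3.

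The snoRNAs of the imprinted clusters are known for expression in brain. Among the 76 these clusters were represented by Snord64 and Snord107 of the chromosome 7 cluster, and 0 were named Snord113, Snord114, Snord115 or Snord116. This goes by gene name only, and transcripts without a Snord name or an entry in M21 were not searched for copies. Snord64 was low, at 17.5, 15.2 and 18.3 per 100 bases in the heterozygous mice and 14.1, 25.6 and 22.8 in the wild types, a log2 fold change of -0.30 (SE 0.37) from 17 to 103 counts.

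By host gene, 10 of the 22 members in ribosomal protein genes had an estimate above 0 and 12 below, with a median log2 fold change of -0.02. In non-coding hosts it was 8 above and 11 below (median -0.10), in other protein-coding hosts 17 above and 11 below (0.08), and in translation factor genes 2 above and 1 below (0.02). No group had a member with an unadjusted p under 0.05. Of other short RNAs of the nucleolus and nucleus, the 32 tested Snora transcripts had 22 estimates above 0 and 10 below (median log2 fold change 0.10), and the 134 other snoRNA-type transcripts 81 above and 53 below (0.07). The 24 snRNAs had 4 above and 20 below (-0.27). At an unadjusted p under 0.05 there were 0, 3 and 0 in these classes. No difference between these classes was tested.

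The members differed widely in how much they varied between mice. The coefficient of variation of TMM CPM over the 6 mice ran from 8.36% to 76.7% with a median of 25.1%, and 51 of 75 were under 30%. Among members with a mean of at least 100 TMM CPM, Snord55 (10.4%), Snord42b (12.8%) and Snord11 (13.6%) varied least. Snord55 had 151, 160 and 189 in heterozygous mice 1, 2 and 3 and 170, 192 and 154 in wild types 1, 2 and 3. At the other end, Snord80 had 15.8, 172 and 280 against 55.6, 160 and 73.3, and Snord68 had 40.0, 186 and 98.9 against 162, 109 and 7.40. For Snord68 the highest mouse exceeded the lowest 25.2-fold, and its lowest values were in wild type 3 and heterozygous mouse 1, 1 mouse of each genotype.

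Several of the most variable members had their lowest value in the same mouse. Of the 24 members with a coefficient of variation over 30%, a set picked after its values were seen, 11 (45.8%) were lowest in wild type 3, the library with the highest total. Over all 75 tested members this was 20 (26.7%), and over all 560 transcripts 17.3%. The share among equally variable transcripts of the whole table was not computed. The 11 include the near-identical Snord14c and Snord14d. Snord57 had 133, 263 and 207 TMM CPM in heterozygous mice 1, 2 and 3 and 216, 151 and 55.8 in wild types 1, 2 and 3, and Snord110 of the same host had 32.1, 61.4 and 47.6 and 63.4, 34.4 and 20.6. In both, as in Snord14a, Snord14c and Snord14d, wild type 3 was lowest, followed by heterozygous mouse 1 and then wild type 2, while heterozygous mice 2 and 3 and wild type 1 were high. The high mice are those in which the most abundant transcript took 45.1% to 47.7% of the counts; its part in this order was not tested.

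Within each genotype, and at like level (60.9 to 344 TMM CPM), the median coefficient of variation was 21.7% over 37 Snord transcripts, 25.9% over 21 Snora transcripts, 24.1% over 53 other snoRNA-type transcripts and 56.9% over 32 tRNAs. The ranges of all of these classes overlapped, and no test was made between them. Taken over all members, heterozygous mouse 3 and wild type 2 stood highest, with a median log2 deviation of 0.20 and 0.22 from each member's mean, and heterozygous mouse 2 lowest at -0.17, so the largest common shifts were between single mice of either genotype.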

How the data were processed

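Duodenal RNA of less than 200 nucleotides was treated to remove base methylation and sequenced in paired ends of 75 bases. The authors used FastQC and Cutadapt on the reads, quantified them with Salmon against the RNAs of GRCm39, retained transcripts under 300 bases and deposited Salmon's estimated counts as whole numbers, without normalization. Salmon shares reads between near-identical transcripts, and levels per length assume that short RNAs are recovered alike.

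Names, types, hosts, sequences and coordinates came from GENCODE M21 (GRCm38), joined by Ensembl transcript identifier without version. The host was the longest gene on the same strand that holds the snoRNA and is not named Gm and a number, or the longest gene of any name where there was none. Near-identical copies (at least 90% identity over at least 80% of the shorter sequence) were found with blastn 2.17.0.

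The whole table was fitted with edgeR 4.0.16 in R 4.3.3: filterByExpr (minimum count 10), TMM, estimateDisp, glmQLFit (legacy = FALSE) and glmQLFTest between 3 heterozygous and 3 wild-type mice, without covariates. Benjamini-Hochberg adjustment ran over all transcripts that passed the filter, with a threshold of 10% FDR; standard errors are the fold change over the square root of F. DESeq2 1.42.0 and limma 3.58.1 voom were alternatives. The code was tested on simulated data. Total counts of 2114055 to 6037849 per mouse set the precision, and 3 mice per genotype limit it.

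Members, lists and naming rules were chosen with earlier results of these data known. Named were the 10 members with the highest level, the 4 higher and 4 lower with the smallest p, the 3 most and 3 least variable with a mean of at least 100 TMM CPM, the tested members of the lists by role, the highest member of each host of 3 or more, and the 3 lowest. Others named were chosen after their values were seen.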

Additional observations from a re-analysis of the deposited data

How the results depend on the processing

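The count of Snord transcripts past 10% FDR was 0 under all 20 alternatives. The count with an unadjusted p under 0.05 was 0 in edgeR's test, 1 with DESeq2's size factors (Snord123, background 4.46%), 2 with TMM over transcripts other than tRNAs (Snord90 and Snord98, background 4.82%), and 0 to 6 when 1 mouse was left out, with 6 without wild type replicate 1 and 1 without heterozygous replicate 3. Scaling by library totals alone moved the median log2 fold change of the members from 0.01 to 0.21, with 53 of 75 above 0, and that of all tested transcripts from -0.05 to 0.14; it also gave 4 members with every heterozygous mouse above the wild types and 0 below. Without the 10 most abundant other transcripts, the heterozygous minus wild-type difference in the Snord share of counts was 1.20 percentage points in place of 0.296; heterozygous mouse 3 stood at 7.29% there, and the other 5 mice at 3.78% to 4.64%. Without tRNAs the difference was -0.215 percentage points, with the wild types higher on average. The cause of these shifts was not tested. Over the 33 named members and 627 alternative values, 592 kept their direction and 35 did not, and the smallest adjusted p was 0.418. Directions turned as follows: under library totals, Snord37 (0.06), Snord49b (0.09), Snord72 (0.22), Snord35a (0.09) and Snord55 (0.14); under upper-quartile scaling, Snord72 (0.04) and Snord55 (0.01); under DESeq2's size factors, Snord72 (0.04); under TMM without tRNAs, Snord118 (-0.05) and Snord2 (-0.02); with the filter of at least 1 count in any mouse, Snord72 (0.04); with a term for library size, Snord72 (0.21), Snord80 (-0.42) and Snord68 (-0.36); under limma voom, Snord80 (-0.02); and under DESeq2, Snord72 (0.06) and Snord55 (0.02). When 1 mouse was left out the log2 fold change ran from -0.30 to 0.27 for Snord118, -0.22 to 0.21 for Snord2, -0.12 to 0.56 for Snord47, -0.15 to 0.04 for Snord55, -0.26 to 0.27 for Snord72, -0.41 to 0.88 for Snord68, -0.73 to 0.04 for Snord1b, -0.02 to 0.73 for Snord14c, -0.22 to 0.12 for Snord49b and -0.28 to 0.02 for Snord35a. No paired analysis was made, as the sources give no pairing between heterozygous and wild-type mice. The alternative in which all near-identical copies of any name were summed, and the host rule without Gm-numbered genes, were chosen after seeing the data. Totals of 2114055 to 6037849 counts limit members such as Snord53 and Snord107.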
